A study of Mus musculus with 9 samples.

Results

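The 45 genes described here encode the machinery that carries a cell through G2 and mitosis, from the cyclins and the kinase CDK1 that start mitosis to the proteins that build the spindle, hold chromosomes on it and cut the cell apart. They were listed by name, with earlier results of these data known, and each name was matched to 1 Ensembl gene of the deposited tables. The tables list 55416 genes, of which 13439 passed the filter on low counts and were tested. All 45 genes passed it, with 381 to 29286 counts per library.

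RNA was sequenced from 4T1 cells, an established mouse mammary carcinoma line from the BALB/c strain, in 3 groups of 3 libraries. Cells of the PBS group received fresh DMEM medium for 12 h. Cells of the MRC group received nanoparticles named MRC, a name the labels do not spell out, for the same 12 h, and those of the MRC+L group were also irradiated at 660 nm for 3 min. The labels write the irradiance of 180 per cm2 once in mV and once in mW. The study title names photodynamic nanostimulators and pyroptosis, and its design compares the 3 groups. Light without particles was not analysed here, so MRC+L can be compared with MRC and with PBS only. Whether the 3 libraries of a group came from separate cultures is not said, so the p-values measure the spread between these libraries, which may be technical.

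The libraries held 15019765 to 20044166 counts. PBS replicate 2 stood apart: relative to the mean of all libraries, its short genes lay 0.924 log2 units above its long genes, against -0.248 to 0.083 in the other 8. The counts of genes called against PBS, over the 45 and over each list of further genes, are therefore also given without that library. CPM here is a gene's count scaled by the TMM-adjusted size of its library. Of 9 epithelial markers, 5 exceeded 1 CPM in PBS (Krt8, Krt18, Krt7, Cldn3 and Cdh1), and Epcam, Cldn4 and Cldn7 stayed under 1 CPM. Their summed level was 1074 to 1917 CPM in PBS, 681 to 713 CPM in MRC and 604 to 616 CPM in MRC+L. Leukocyte markers summed to 7.16 to 12.1 CPM in PBS, 17.0 to 22.8 CPM in MRC and 18.6 to 20.1 CPM in MRC+L, mostly Cd68, while Cd3e, Adgre1 and Nkg7 were at 0 in every group. Fibroblast markers summed to 43.5 to 78.8, 75.7 to 93.4 and 74.1 to 84.1 CPM, mostly Pdgfra and Pdgfrb, and endothelial markers to at most 7.47 CPM. The epithelial sums were lower and the leukocyte sums higher in both treated groups than in every PBS library. The fibroblast and endothelial sums of both treated groups overlapped with PBS. The part of these sums in the results below was not tested.

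As background, cyclin B bound to CDK1 triggers entry into mitosis, Polo and Aurora kinases shape the spindle, and the spindle checkpoint holds back the anaphase-promoting complex (APC/C) until every chromosome is attached. The APC/C then marks securin and cyclin B for destruction, which frees separase to split sister chromatids and lets the cell divide. Most of these genes are transcribed late in the cell cycle, through promoters that commonly carry CCAAT boxes, read by NF-Y, and a cell cycle genes homology region (CHR), read by the DREAM and MuvB complexes together with B-MYB and FOXM1. A bulk library that holds fewer cells in G2 and mitosis and one whose cells hold less of each RNA cannot be told apart.

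The promoters of Ccnb1, Cdc20 and Plk1, which encode the mitotic trigger, the APC/C activator and the central mitotic kinase, are shown so that these elements can be seen. Cdk1 and Top2a were added after their values and motif matches were seen, since both carry repeated matches. Each line gives the 250 bases before the RefSeq start on GRCm38.p6, 5′ to 3′ on the gene's strand. Capitals mark CHR letters (TTTGAA, or TTCAAA for the other strand) and CCAAT boxes (CCAAT, or ATTGG for the other strand), which share no overlap here. The windows are chr13:100786487-100786736 (minus strand) for Ccnb1, chr4:118437344-118437593 (minus) for Cdc20, chr7:122159185-122159434 (plus) for Plk1, chr10:69352913-69353162 (minus) for Cdk1 and chr11:99024190-99024439 (minus) for Top2a.
Ccnb1: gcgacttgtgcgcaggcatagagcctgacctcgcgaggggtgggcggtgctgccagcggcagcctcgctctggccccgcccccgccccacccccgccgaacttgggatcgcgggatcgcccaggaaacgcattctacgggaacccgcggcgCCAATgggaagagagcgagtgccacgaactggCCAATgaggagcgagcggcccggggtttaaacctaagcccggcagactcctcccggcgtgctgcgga
Cdc20: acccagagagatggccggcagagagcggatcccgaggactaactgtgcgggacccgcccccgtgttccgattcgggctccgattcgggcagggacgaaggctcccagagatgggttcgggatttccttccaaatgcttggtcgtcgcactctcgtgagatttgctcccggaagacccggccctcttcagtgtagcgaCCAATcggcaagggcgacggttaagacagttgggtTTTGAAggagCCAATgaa
Plk1: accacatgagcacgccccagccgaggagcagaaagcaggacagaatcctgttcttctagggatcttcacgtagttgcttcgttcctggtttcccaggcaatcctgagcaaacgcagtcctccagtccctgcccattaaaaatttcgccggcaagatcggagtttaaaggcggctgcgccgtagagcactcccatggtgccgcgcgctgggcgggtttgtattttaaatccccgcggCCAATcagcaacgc
Cdk1: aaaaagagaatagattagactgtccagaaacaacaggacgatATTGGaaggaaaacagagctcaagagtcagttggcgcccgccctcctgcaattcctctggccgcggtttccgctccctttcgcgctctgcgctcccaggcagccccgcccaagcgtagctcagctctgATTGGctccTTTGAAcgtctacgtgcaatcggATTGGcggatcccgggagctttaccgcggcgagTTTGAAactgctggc
Top2a: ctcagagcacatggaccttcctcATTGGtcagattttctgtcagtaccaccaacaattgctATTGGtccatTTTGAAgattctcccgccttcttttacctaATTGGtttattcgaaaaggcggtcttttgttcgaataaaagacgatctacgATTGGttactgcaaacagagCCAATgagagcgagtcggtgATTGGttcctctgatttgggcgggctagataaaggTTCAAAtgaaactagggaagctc

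Of the 45 genes, 37 had a window in the RefSeq table. Ccna2, Foxm1, Aurkb, Tpx2, Incenp, Dlgap5, Kif20a and Cdc25c had none. Some genes have more than 1 window (32851 windows for 27025 genes), and a gene counted if any of its windows matched. CCAAT letters occurred in 28 of the 37 (75.68%), against 37.49% of all 27025 genes with windows of the same length. CHR letters occurred in 13 (35.14%), against 18.26%, and both motifs in 12 (32.43%), against 6.453%. Top2a had 6 CCAAT and 2 CHR matches, Cdk1 had 3 and 2, Cdc20 had 2 and 1, Ccnb1 had 2 and 0, and Plk1 had 1 and 0. These are matches of letters, not mapped sites.

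Most of the 45 genes had lower RNA levels after the particles, and none was higher by the test. In MRC, 34 of the 45 fell (edgeR quasi-likelihood test over all tested genes, Benjamini-Hochberg adjusted p under 0.05), where 19.8% of all 13439 tested genes fell, 17.8% rose and 37.6% changed in either direction. In MRC+L 36 fell, against 24.5% of all genes lower, 21.8% higher and 46.2% changed. The median log2 fold change of the 45 genes was -0.55 in MRC and -0.72 in MRC+L, against -0.03 over all genes in both comparisons. These comparisons share the 3 PBS libraries, so they are not separate observations.

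Summed over the 45 genes, levels were 11288, 9858 and 11731 CPM in the PBS libraries, 7283, 7513 and 7660 in MRC, and 6899, 6717 and 6692 in MRC+L. Every MRC library lay below every PBS library, and every MRC+L library below every MRC library. For single genes the 3 MRC libraries all lay below the 3 PBS libraries in 35 of 45, against 24.2% of all tested genes, and the MRC+L libraries did so in 36 of 45, against 28.1%. The 3 groups ran PBS, MRC, MRC+L from high to low without overlap in 27 of the 45, against 5.54% of all tested genes. Replicates of the 45 genes were spread more widely in PBS, with a median coefficient of variation of 14.7%, than in MRC (5.03%) or MRC+L (4.19%).

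**Figure D1:**
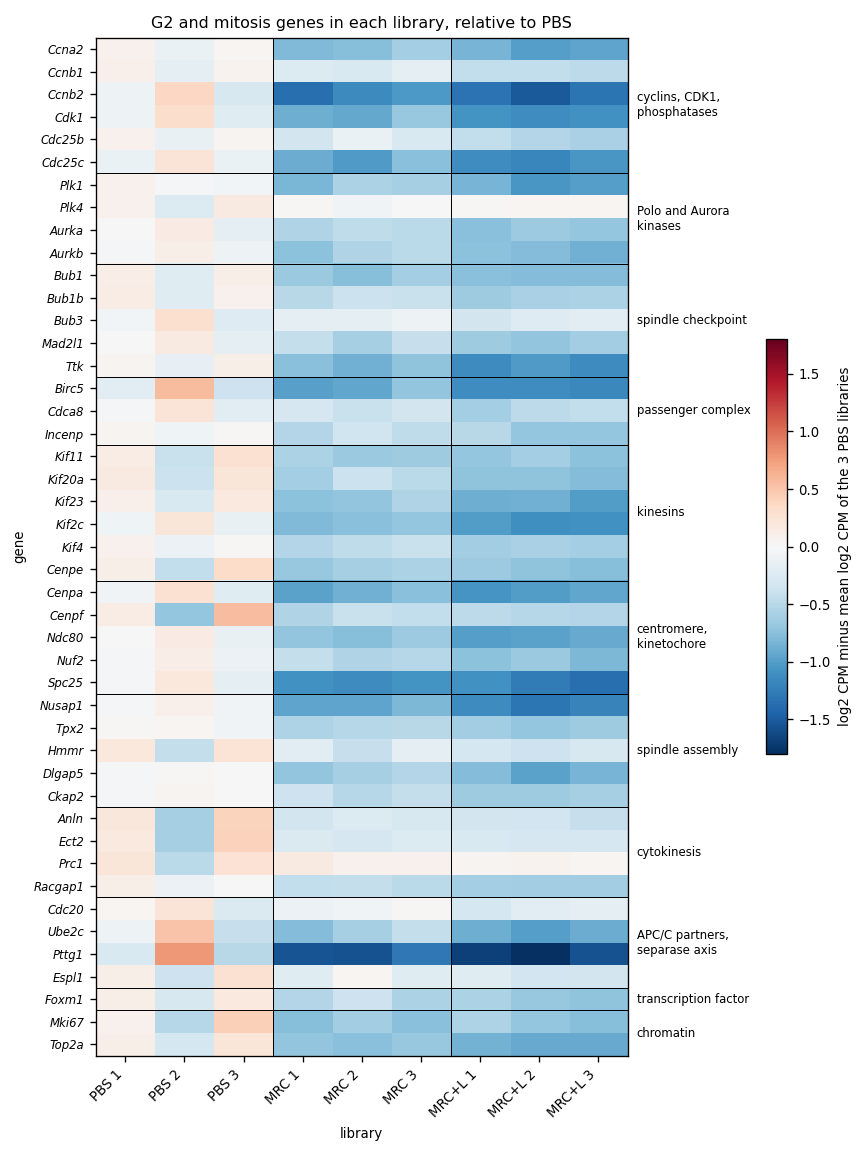
Each row is 1 of the 45 genes, grouped by role, and each column 1 of the 9 libraries. Colour gives log2 CPM minus the mean log2 CPM of the 3 PBS libraries (blue lower, red higher). The MRC and MRC+L columns are blue in nearly every row, Plk4 and Prc1 stay close to the PBS mean, and PBS 2 departs from PBS 1 and PBS 3 in rows such as Pttg1, Birc5, Cenpf and Anln.

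The cyclins and CDK1 with its activating phosphatases were lower after the particles. In MRC 4 of the 6 fell (median log2 -0.78) and in MRC+L all 6 did (median -1.02). Ccnb2 (chr9:70314974-70328829 on GRCm39, minus strand), a B-type cyclin that binds CDK1, had 157, 216 and 136 CPM in PBS, 64.8, 74.9 and 81.3 CPM in MRC and 66.4, 58.4 and 66.8 CPM in MRC+L. All treated libraries lay below all PBS libraries, while MRC and MRC+L overlapped. Its level was 2.3-fold lower (log2 -1.20, SE 0.17, adjusted p = 0.000437) in MRC and 2.65-fold lower (log2 -1.41, SE 0.17, adjusted p = 0.000133) in MRC+L. Ccna2 (chr3:36619014-36626299, minus strand), the cyclin of S phase and G2, was the most abundant of the 6 in CPM, with 341, 298 and 333 CPM in PBS, 187, 189 and 212 CPM in MRC and 181, 163 and 167 CPM in MRC+L. The 3 groups did not overlap, and Ccna2 was 1.65-fold lower (log2 -0.72, SE 0.10, adjusted p = 0.000489) in MRC and 1.9-fold lower (log2 -0.93, SE 0.10, adjusted p = 8.32e-05) in MRC+L.

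Cdk1 (chr10:69170976-69188768, minus strand), the kinase that drives mitotic entry, had 193, 257 and 177 CPM in PBS, 112, 109 and 128 CPM in MRC and 97.8, 95.0 and 97.3 CPM in MRC+L. Its PBS libraries were spread more than its treated ones, yet the 3 groups stayed apart, and it was 1.79-fold lower (log2 -0.84, SE 0.14, adjusted p = 0.00127) in MRC and 2.16-fold lower (log2 -1.11, SE 0.14, adjusted p = 0.000192) in MRC+L. Cdc25c, a phosphatase that removes inhibitory phosphates from CDK1, had 68.3, 87.1 and 67.9 CPM in PBS, 39.8, 36.3 and 44.1 CPM in MRC and 34.1, 32.7 and 35.7 CPM in MRC+L. It was 1.86-fold lower (log2 -0.89, SE 0.13, adjusted p = 0.000467) in MRC and 2.18-fold lower (log2 -1.12, SE 0.13, adjusted p = 9.06e-05) in MRC+L, again without overlap between the groups. The other phosphatase, Cdc25b, had 166, 143 and 163 CPM in PBS, 125, 144 and 130.0 CPM in MRC and 116, 109 and 104 CPM in MRC+L, and 1 MRC library exceeded the lowest PBS library. Ccnb1, the principal mitotic cyclin, had 236, 197 and 231 CPM in PBS, 187, 183 and 196 CPM in MRC and 162, 162 and 159 CPM in MRC+L, with the highest MRC library just under the lowest PBS library. Neither Ccnb1 (log2 -0.23, adjusted p = 0.0951) nor Cdc25b (log2 -0.24, adjusted p = 0.0979) passed the test in MRC, but both did without PBS replicate 2 (adjusted p = 0.00177 and 0.00474). In MRC+L Ccnb1 was 1.37-fold lower (log2 -0.46, SE 0.10, adjusted p = 0.00452) and Cdc25b was 1.43-fold lower (log2 -0.52, SE 0.11, adjusted p = 0.00284).

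Of the 4 Polo and Aurora kinases, 3 fell in each comparison. Plk1 (chr7:121758662-121769096, plus strand), which acts at centrosomes, kinetochores and the midbody, had 219, 205 and 200.4 CPM in PBS, 118, 139 and 137 CPM in MRC and 116, 100.2 and 104 CPM in MRC+L. Its level was 1.58-fold lower (log2 -0.66, SE 0.11, adjusted p = 0.000995) in MRC and 1.95-fold lower (log2 -0.96, SE 0.11, adjusted p = 8.33e-05) in MRC+L, and the groups did not overlap. Aurkb (chr11:68936473-68942490, plus strand), the kinase of the chromosomal passenger complex, had 131, 143 and 125 CPM in PBS, 80.0, 91.4 and 95.0 CPM in MRC and 79.8, 77.4 and 73.0 CPM in MRC+L, and was 1.5-fold lower (log2 -0.59, SE 0.10, adjusted p = 0.00166) in MRC and 1.74-fold lower (log2 -0.80, SE 0.10, adjusted p = 0.00021) in MRC+L. Aurka, the spindle pole kinase, was 1.42-fold lower in MRC (adjusted p = 0.00394) and 1.63-fold lower in MRC+L (adjusted p = 0.000438). Plk4, which licenses centriole duplication and not spindle assembly, had 142, 114 and 152 CPM in PBS, 137, 129 and 136 CPM in MRC and 137, 138 and 139 CPM in MRC+L. Its groups overlapped, with log2 differences of -0.02 (SE 0.11, adjusted p = 0.894) in MRC and 0.02 (SE 0.11, adjusted p = 0.908) in MRC+L.

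Of the 5 spindle checkpoint genes, 4 fell in each comparison. Ttk (chr9:83716742-83754442, plus strand), the kinase MPS1 at the top of the checkpoint, had 100.4, 87.2 and 104 CPM in PBS, 57.7, 52.9 and 58.4 CPM in MRC and 44.2, 47.8 and 44.2 CPM in MRC+L, and the 3 groups did not overlap. Its level was 1.72-fold lower (log2 -0.79, SE 0.10, adjusted p = 0.000267) in MRC and 2.14-fold lower (log2 -1.10, SE 0.10, adjusted p = 2.77e-05) in MRC+L. Bub1, a kinase that places checkpoint proteins on kinetochores, had 202, 160.5 and 201 CPM in PBS, 118, 110.3 and 122 CPM in MRC and 111, 108 and 109 CPM in MRC+L. All treated libraries lay below all PBS libraries, and Bub1 was 1.61-fold lower (log2 -0.69, SE 0.11, adjusted p = 0.000992) in MRC and 1.72-fold lower (log2 -0.78, SE 0.11, adjusted p = 0.000373) in MRC+L. Bub1b, which encodes the APC/C inhibitor BUBR1, had 292, 229 and 280.4 CPM in PBS, 188, 203 and 202 CPM in MRC and 171, 177 and 179 CPM in MRC+L and was 1.35-fold lower (log2 -0.43, SE 0.11, adjusted p = 0.0121) in MRC and 1.52-fold lower (log2 -0.61, SE 0.11, adjusted p = 0.00171) in MRC+L. The MRC call of Bub1b was lost without PBS replicate 1 (adjusted p = 0.0554) or MRC replicate 1 (0.0589). Mad2l1, which encodes the checkpoint protein MAD2, was 1.4-fold lower in MRC (adjusted p = 0.00553) and 1.58-fold lower in MRC+L (adjusted p = 0.000792). Bub3, their shared partner, had 161, 202 and 141 CPM in PBS, 148, 148 and 156 CPM in MRC and 131, 141 and 144 CPM in MRC+L and passed neither test (adjusted p = 0.39 and 0.116), although it was called lower in MRC+L without PBS replicate 3 (adjusted p = 0.0188).

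All 3 non-kinase members of the chromosomal passenger complex, which corrects faulty attachments and guides cytokinesis, fell in both comparisons. Birc5 (chr11:117740077-117746569, plus strand), which encodes survivin, had 133, 225 and 118 CPM in PBS, 77.2, 79.3 and 93.2 CPM in MRC and 69.9, 70.2 and 68.1 CPM in MRC+L. PBS replicate 2 was far above the other PBS libraries, but even the lowest PBS value exceeded every treated one. Birc5 was 1.91-fold lower (log2 -0.93, SE 0.21, adjusted p = 0.00651) in MRC and 2.29-fold lower (log2 -1.19, SE 0.21, adjusted p = 0.00141) in MRC+L. These fold changes were enlarged by PBS replicate 2. Without it the largest change among the 3 genes was log2 -0.60 in MRC and -0.86 in MRC+L, and all 3 were still called lower. Incenp, the scaffold of the complex, had 239, 219 and 233 CPM in PBS, 160.2, 179.8 and 168 CPM in MRC and 163, 141 and 142 CPM in MRC+L, and was 1.36-fold lower (log2 -0.44, SE 0.10, adjusted p = 0.00688) in MRC and 1.55-fold lower (log2 -0.63, SE 0.10, adjusted p = 0.000792) in MRC+L. Cdca8, which encodes borealin, changed least of the 3, 1.28-fold lower in MRC (adjusted p = 0.0439) and 1.43-fold lower in MRC+L (adjusted p = 0.00651). Its MRC call was lost when any 1 library other than PBS replicate 2 or PBS replicate 3 was left out, with adjusted p between 0.0652 and 0.133.

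All 6 kinesins, the motors of the mitotic spindle, fell in both comparisons. Kif2c (chr4:117016836-117039836, minus strand), which takes microtubules apart at centromeres, had 126, 154 and 122 CPM in PBS, 76.9, 79.1 and 82.3 CPM in MRC and 66.5, 62.2 and 62.6 CPM in MRC+L. The 3 groups did not overlap, and it was 1.69-fold lower (log2 -0.75, SE 0.11, adjusted p = 0.000548) in MRC and 2.1-fold lower (log2 -1.07, SE 0.11, adjusted p = 5.19e-05) in MRC+L. Kif23, the kinesin of the central spindle, had 199.9, 155 and 211 CPM in PBS, 112, 114 and 129 CPM in MRC and 102, 103 and 93.2 CPM in MRC+L, and was 1.59-fold lower (log2 -0.67, SE 0.13, adjusted p = 0.00267) in MRC and 1.9-fold lower (log2 -0.92, SE 0.13, adjusted p = 0.000329) in MRC+L. Cenpe, the kinetochore motor that brings chromosomes to the spindle equator and the kinesin with the highest CPM, had 328, 226 and 384 CPM in PBS, 189.7, 202 and 206 CPM in MRC and 194, 185 and 179 CPM in MRC+L. Its PBS libraries ranged widely but stayed above the treated ones, and it was 1.57-fold lower (log2 -0.65, SE 0.17, adjusted p = 0.0123) in MRC and 1.68-fold lower (log2 -0.75, SE 0.17, adjusted p = 0.005) in MRC+L. The MRC call of Cenpe was lost without MRC replicate 1 (adjusted p = 0.055).

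Kif11, which pushes spindle poles apart, was 1.58-fold lower in MRC (adjusted p = 0.00813) and 1.64-fold lower in MRC+L (adjusted p = 0.00439). Kif4, a motor of chromosome arms and the central spindle, was 1.37-fold lower (adjusted p = 0.00345) and 1.53-fold lower (adjusted p = 0.000531). Kif20a, which acts in cytokinesis, was 1.43-fold lower in MRC (adjusted p = 0.0231) and 1.7-fold lower in MRC+L (adjusted p = 0.00253). For Kif20a the MRC call was lost when MRC replicate 1 or 3 or PBS replicate 1 was left out (adjusted p = 0.0953, 0.0628 and 0.0838).

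Of 5 centromere and kinetochore genes 4 fell in each comparison. Spc25 (chr2:69024239-69036538, minus strand), a subunit of the NDC80 complex that binds microtubules, had the lowest mean CPM of the 45 genes, with 59.9, 69.7 and 54.9 CPM in PBS, 28.7, 27.9 and 29.0 CPM in MRC and 28.6, 25.5 and 23.9 CPM in MRC+L. MRC and MRC+L overlapped and lay below PBS, and Spc25 was 2.16-fold lower (log2 -1.11, SE 0.12, adjusted p = 9.30e-05) in MRC and 2.36-fold lower (log2 -1.24, SE 0.12, adjusted p = 3.42e-05) in MRC+L. Ndc80, which names that complex, had 107, 120.1 and 98.7 CPM in PBS, 66.3, 63.9 and 69.2 CPM in MRC and 54.8, 55.6 and 57.7 CPM in MRC+L, and was 1.64-fold lower (log2 -0.71, SE 0.10, adjusted p = 0.000438) in MRC and 1.94-fold lower (log2 -0.96, SE 0.10, adjusted p = 5.60e-05) in MRC+L. Nuf2, its direct partner, was 1.41-fold lower in MRC (adjusted p = 0.00295) and 1.67-fold lower in MRC+L (adjusted p = 0.000228). Cenpa, the histone H3 variant that marks the centromere, was 1.83-fold lower (adjusted p = 0.000678) and 2.03-fold lower (adjusted p = 0.00021). Cenpf, a large kinetochore protein, had 356, 199 and 477 CPM in PBS, 223, 245 and 239 CPM in MRC and 234, 227 and 224 CPM in MRC+L. PBS replicate 2 lay below all treated libraries while the other PBS libraries lay above them, and the log2 differences of -0.55 (adjusted p = 0.103) and -0.59 (adjusted p = 0.0714) did not pass the test. Without PBS replicate 2 they did, at -0.83 (adjusted p = 6.06e-07) and -0.87 (adjusted p = 2.52e-07).

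**Figure D2:**
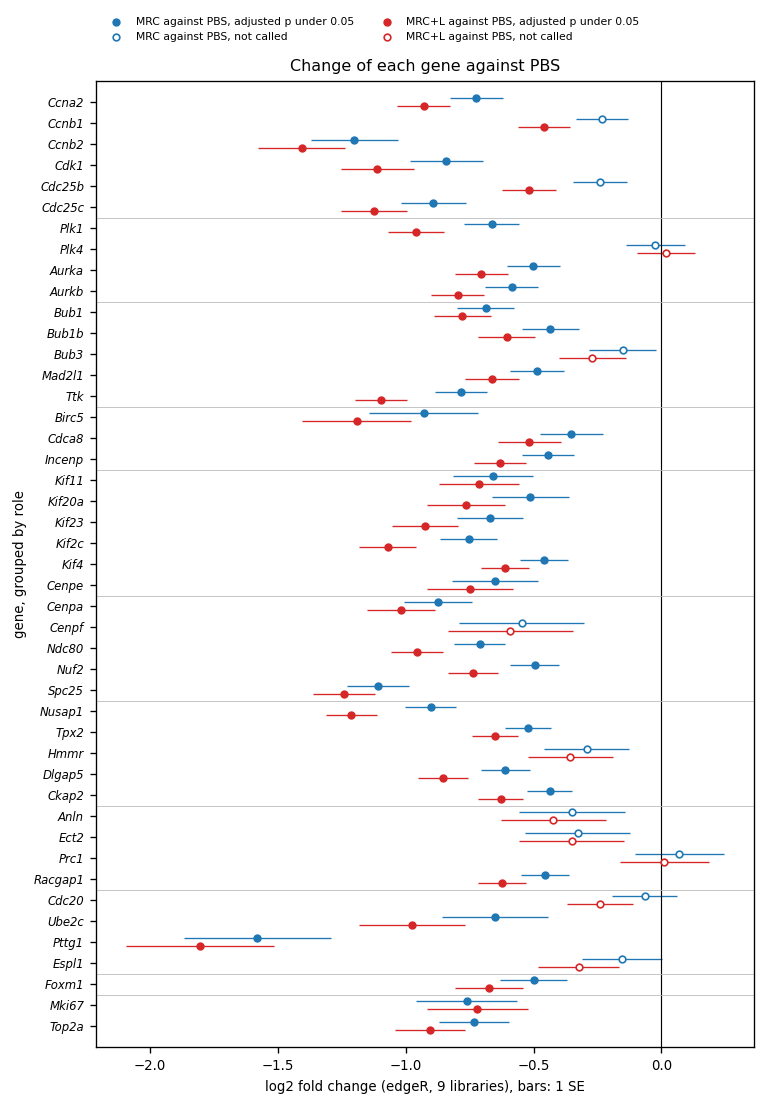
Points give the log2 fold change against PBS from the edgeR fit to 9 libraries and bars 1 SE, for MRC (blue) and MRC+L (red), with genes grouped by role. Filled points passed an adjusted p of 0.05. Pttg1 lies farthest to the left and Plk4 and Prc1 sit at 0.

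Of 5 spindle assembly factors 4 fell in each comparison. Nusap1 (chr2:119448779-119481725, plus strand), which bundles microtubules near chromosomes, had 199, 219 and 196 CPM in PBS, 105, 106 and 117 CPM in MRC and 93.3, 82.7 and 89.1 CPM in MRC+L. The 3 groups did not overlap, and its adjusted p in MRC+L was the smallest among the 45 genes: it was 1.87-fold lower (log2 -0.90, SE 0.10, adjusted p = 0.000105) in MRC and 2.32-fold lower (log2 -1.21, SE 0.10, adjusted p = 1.32e-05) in MRC+L. Dlgap5, which stabilises kinetochore fibres, had 142, 148 and 146 CPM in PBS, 89.0, 96.1 and 101 CPM in MRC and 85.1, 74.8 and 81.6 CPM in MRC+L, and was 1.53-fold lower (log2 -0.61, SE 0.10, adjusted p = 0.000817) in MRC and 1.81-fold lower (log2 -0.85, SE 0.10, adjusted p = 8.42e-05) in MRC+L. Tpx2 (chr2:152689884-152737241, plus strand), the activator of Aurora A, had 412, 415 and 387 CPM in PBS, 276, 285 and 286 CPM in MRC and 262, 251 and 260.2 CPM in MRC+L, and was 1.43-fold lower (log2 -0.52, SE 0.090, adjusted p = 0.00143) in MRC and 1.57-fold lower (log2 -0.65, SE 0.090, adjusted p = 0.000299) in MRC+L. Ckap2, a microtubule stabiliser of the spindle, was 1.35-fold lower (adjusted p = 0.00335) and 1.55-fold lower (adjusted p = 0.000324). Hmmr, a hyaluronan receptor that also sits on the spindle, had 175, 113 and 182 CPM in PBS, 133, 115 and 136 CPM in MRC and 123, 118 and 126 CPM in MRC+L, with PBS replicate 2 below all treated libraries. It passed neither test (adjusted p = 0.191 and 0.103), and passed both without PBS replicate 2 (log2 -0.49 and -0.54, adjusted p = 8.12e-05 and 1.84e-05).

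Of 4 cytokinesis genes, 1 fell in each comparison, near the share of all tested genes that fell (19.8% in MRC and 24.5% in MRC+L). This count turned on PBS replicate 2. Without that library 3 of the 4 fell in MRC and 4 in MRC+L, where 26% and 28.3% of all tested genes did. Racgap1 (chr15:99518377-99549537, minus strand), which with KIF23 forms the centralspindlin complex, had 279, 242 and 258 CPM in PBS, 191, 192 and 186 CPM in MRC and 170.2, 167 and 168 CPM in MRC+L, and was 1.37-fold lower (log2 -0.46, SE 0.093, adjusted p = 0.00382) in MRC and 1.54-fold lower (log2 -0.62, SE 0.094, adjusted p = 0.000494) in MRC+L. Anln, the contractile ring scaffold anillin, had 817, 471 and 939.6 CPM in PBS, 565, 598 and 584 CPM in MRC and 564, 564 and 535 CPM in MRC+L, and Ect2, the exchange factor that switches on RhoA at the division plane, had 236, 138 and 278 CPM in PBS, 174, 169 and 176 CPM in MRC and 172, 169 and 169.7 CPM in MRC+L. In both genes PBS replicate 2 lay below every treated library and the other PBS libraries above them. Neither passed the test (Anln adjusted p = 0.208 and 0.119, Ect2 0.234 and 0.185). Without PBS replicate 2, Anln was lower by log2 -0.60 in MRC and -0.67 in MRC+L (adjusted p = 3.48e-06 and 7.03e-07), and Ect2 by -0.58 and -0.59 (adjusted p = 7.83e-06 and 4.53e-06). Prc1, which cross-links the central spindle, had 265, 161 and 272 CPM in PBS, 254, 239.9 and 239.5 CPM in MRC and 234, 237 and 233 CPM in MRC+L. Its log2 differences were 0.07 in MRC (adjusted p = 0.779) and 0.01 in MRC+L (adjusted p = 0.964). Without PBS replicate 2 they became -0.14 and -0.20 (adjusted p = 0.133 and 0.0368), so the direction of Prc1 turned on 1 library.

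Among the partners of the APC/C and separase, 2 of 4 fell in each comparison. Pttg1 (chr11:43311077-43317078, minus strand), which encodes securin, the inhibitor of separase, had the largest fold change of the 45 genes, with 77.4, 161 and 66.4 CPM in PBS, 31.9, 31.6 and 38.4 CPM in MRC and 29.4, 26.4 and 31.5 CPM in MRC+L. It was 2.99-fold lower (log2 -1.58, SE 0.29, adjusted p = 0.00195) in MRC and 3.49-fold lower (log2 -1.80, SE 0.29, adjusted p = 0.000764) in MRC+L, and no treated library reached a PBS library. PBS replicate 2 exceeded the sum of the other PBS libraries, and without it Pttg1 was 2.12-fold lower (log2 -1.08, SE 0.11, adjusted p = 4.58e-08) in MRC and 2.47-fold lower (log2 -1.30, SE 0.11, adjusted p = 2.57e-09) in MRC+L. Ube2c (chr2:164611818-164620742, plus strand), the ubiquitin-conjugating enzyme that works with the APC/C, had 226, 345 and 181 CPM in PBS, 140.4, 159 and 179 CPM in MRC and 131, 121 and 130.3 CPM in MRC+L, with the highest MRC library just under the lowest PBS library. It was 1.57-fold lower (log2 -0.65, SE 0.21, adjusted p = 0.0312) in MRC and 1.96-fold lower (log2 -0.97, SE 0.21, adjusted p = 0.00372) in MRC+L. PBS replicate 2 lay 0.77 log2 units above the mean of the other PBS libraries, and its inclusion enlarged these fold changes. Per kb of summed exon, the PBS mean was 96.4 CPM with that library and 78.2 CPM without it. The means in MRC and MRC+L were 61.4 and 49.0 CPM per kb. The MRC call of Ube2c was lost without MRC replicate 1 (adjusted p = 0.121), MRC replicate 2 (0.0898) or any 1 MRC+L library (0.0507 to 0.0517).

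Cdc20 (chr4:118290098-118294549, minus strand), the activator that the checkpoint restrains, had 298, 341 and 245 CPM in PBS, 270.4, 279 and 296 CPM in MRC and 234, 253 and 262 CPM in MRC+L. PBS overlapped with both treated groups, and the log2 differences of -0.07 (SE 0.13, adjusted p = 0.721) and -0.24 (SE 0.13, adjusted p = 0.148) did not pass. Cdc20 was called lower in MRC+L without PBS replicate 3 (adjusted p = 0.0188), and its difference in MRC was 0.05 without PBS replicate 2. Espl1, which encodes separase, had 143, 103 and 160.3 CPM in PBS, 114, 136 and 114 CPM in MRC and 114, 104 and 106 CPM in MRC+L and passed neither test (adjusted p = 0.47 and 0.117). Without PBS replicate 2 Espl1 was lower by log2 -0.33 in MRC (adjusted p = 0.0064) and -0.49 in MRC+L (adjusted p = 0.000159).

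Foxm1 (chr6:128339930-128353109, plus strand), the transcription factor that activates many G2 genes, had 212, 161 and 223 CPM in PBS, 136, 153 and 133 CPM in MRC and 133, 122 and 119 CPM in MRC+L. It was 1.41-fold lower (log2 -0.50, SE 0.13, adjusted p = 0.0139) in MRC and 1.59-fold lower (log2 -0.67, SE 0.13, adjusted p = 0.00241) in MRC+L. Its MRC call was lost when MRC replicate 1 or 3 or PBS replicate 1 was left out (adjusted p = 0.0592, 0.0543 and 0.054). Top2a (chr11:98883769-98915015, minus strand), the topoisomerase that untangles sister chromatids, had the highest CPM of the 45 genes, with 1529.7, 1145 and 1660.5 CPM in PBS, 869, 851 and 886 CPM in MRC and 792, 764 and 762 CPM in MRC+L. The 3 groups did not overlap, and Top2a was 1.66-fold lower (log2 -0.73, SE 0.14, adjusted p = 0.00221) in MRC and 1.87-fold lower (log2 -0.90, SE 0.14, adjusted p = 0.000531) in MRC+L. Mki67 (chr7:135291513-135318090, minus strand), which coats mitotic chromosomes and is widely used as a proliferation marker, had 879.7, 586 and 1126 CPM in PBS, 491, 542 and 497 CPM in MRC and 566, 516 and 492 CPM in MRC+L. Its treated libraries all lay below PBS replicate 2, the lowest PBS library, and it was 1.7-fold lower (log2 -0.76, SE 0.20, adjusted p = 0.013) in MRC and 1.65-fold lower (log2 -0.72, SE 0.20, adjusted p = 0.0142) in MRC+L. Mki67 lost its MRC call without MRC replicate 1 (adjusted p = 0.0547) and its MRC+L call without MRC+L replicate 2 (0.0513) or MRC+L replicate 3 (0.0552).

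**Figure D3:**
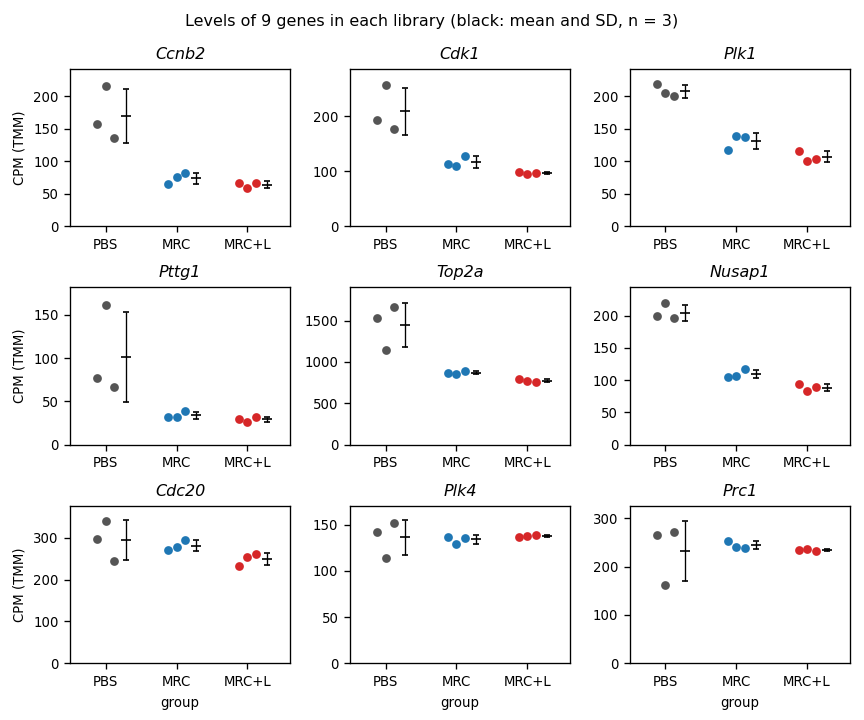
Each panel shows 1 gene in CPM on an axis from 0, with a point for each of the 9 libraries and the mean and SD (n = 3) in black. Ccnb2, Cdk1, Plk1, Pttg1, Top2a and Nusap1 have all treated points below the PBS points, while in Cdc20, Plk4 and Prc1 the PBS points overlap the treated points.

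Most of the genes not called in MRC were called once PBS replicate 2 was left out. Of the 11 genes not called in MRC (Cenpf, Cdc25b, Plk4, Ect2, Cdc20, Prc1, Bub3, Anln, Hmmr, Ccnb1 and Espl1), 7 were called lower when that library was left out, and Plk4, Cdc20, Prc1 and Bub3 were not. Calls in either direction over the whole table rose as well, from 5050 of 13439 to 6962 of 13747 tested genes in MRC. The count of the 45 genes called lower rose from 34 to 41 in MRC, where 26% of all tested genes were lower. In MRC+L it rose from 36 to 42, where 28.3% were. Without MRC replicate 1 the MRC count was 27. Leaving out any 1 library gave 27 to 41 in MRC and 35 to 42 in MRC+L, and none of the 45 genes was called higher in any of these fits. In MRC+L, Mki67 was the only one of the 36 calls that a single omission ended.

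Within PBS, replicate 2 was the lowest of the 3 libraries for 23 of the 45 genes and the highest for 21, and its position moved with transcript length. Over the 45 genes its log2 distance from the mean of the other PBS libraries had a Spearman correlation of -0.58 with summed exon length, and over all 13439 tested genes -0.53. All points share the same 3 libraries, so this is a description. The median distance was 0.16 in the 15 shortest genes (up to 4.28 kb, among them Pttg1, Ccnb2 and Ube2c) and -0.48 in the 15 longest (from 6.49 kb, among them Cenpf, Mki67 and Anln). Leaving the library out took the genes called lower from 9 to 12 of the 15 longest in MRC and from 9 to 13 in MRC+L. In the 15 shortest the counts were 12 and 14 in MRC, and 14 both times in MRC+L. Over all tested genes the share called lower also rose, from 19.8% to 26% in MRC and from 24.5% to 28.3% in MRC+L. Shares for all genes of like length were not computed, so these counts are not shown to be particular to the 45 genes. The size of the change moved in opposite ways. Without the library the median log2 fold change of the 15 shortest shrank from -0.65 to -0.54 in MRC and from -0.93 to -0.74 in MRC+L. That of the 15 longest grew from -0.55 to -0.60 and from -0.66 to -0.84.

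**Figure D4:**
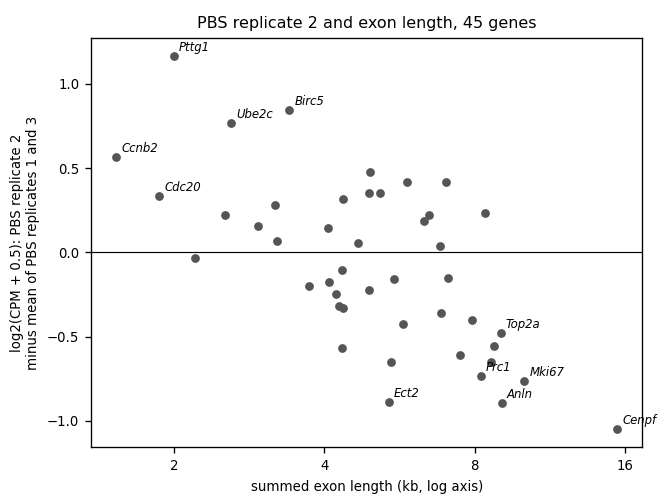
Each of the 45 points is a gene, with its summed exon length in kb on a log axis and, on the vertical axis, log2(CPM + 0.5) of PBS replicate 2 minus the mean of PBS replicates 1 and 3. Short genes such as Pttg1 and Birc5 lie above 0 and long genes such as Cenpf and Anln below it.

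The comparison of MRC+L with MRC asks what the light added in cells that already held particles. In the edgeR fit to all 9 libraries 0 of the 45 genes, and 0 of all 13439 genes, passed the test (0% called). At an unadjusted p under 0.05 there were 9 of the 45 genes and 573 of all genes, and DESeq2 called 22 genes and 0 of the 45. The median log2 difference of the 45 genes was -0.18, against -0.01 over all genes, and 43 of the 45 differences were negative, against 52.0% of all genes. In 33 of the 45 every MRC+L library lay below every MRC library, against 12.6% of all tested genes. Plk4 (log2 0.04) and Mki67 (log2 0.04) were the genes with a positive difference.

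Fitted to the 6 MRC and MRC+L libraries alone, without the wider spread of PBS, 12 of the 45 genes fell and none rose, where 1.91% of 12955 tested genes fell, 3.13% rose and 5.05% changed. The 12 were Ube2c, Kif2c, Ttk, Nusap1, Plk1, Cdc25b, Cdk1, Birc5, Kif23, Kif20a, Ndc80 and Ccnb1. The differences were small. Kif2c was 1.24-fold lower (log2 -0.31, SE 0.069, adjusted p = 0.0112), Nusap1 1.24-fold lower (log2 -0.31, SE 0.069, adjusted p = 0.0137), Ube2c 1.25-fold lower (log2 -0.32, SE 0.076, adjusted p = 0.0167) and Ccnb1 1.17-fold lower (log2 -0.22, SE 0.061, adjusted p = 0.0362). These calls rested on single libraries: 12 and 15 of the 45 genes were called without MRC replicate 1 or MRC replicate 2, 0 without MRC replicate 3, and 5, 0 and 2 without MRC+L replicates 1, 2 and 3. The shares of all tested genes called in these fits are not given here. The changes in these counts therefore cannot be read as particular to the 45 genes.

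Among genes not called in those 6 libraries, Ccnb2 (log2 -0.20, SE 0.083, adjusted p = 0.156) and Pttg1 (log2 -0.22, SE 0.10, adjusted p = 0.19) had differences near the median of the 45, with wider errors. Both were among the genes farthest below PBS. Mki67 (log2 0.05, adjusted p = 0.741), Cenpf (-0.04, adjusted p = 0.755), Ect2 (-0.02, adjusted p = 0.895) and Kif11 (-0.05, adjusted p = 0.682) differed by less than their errors.

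**Figure D5:**
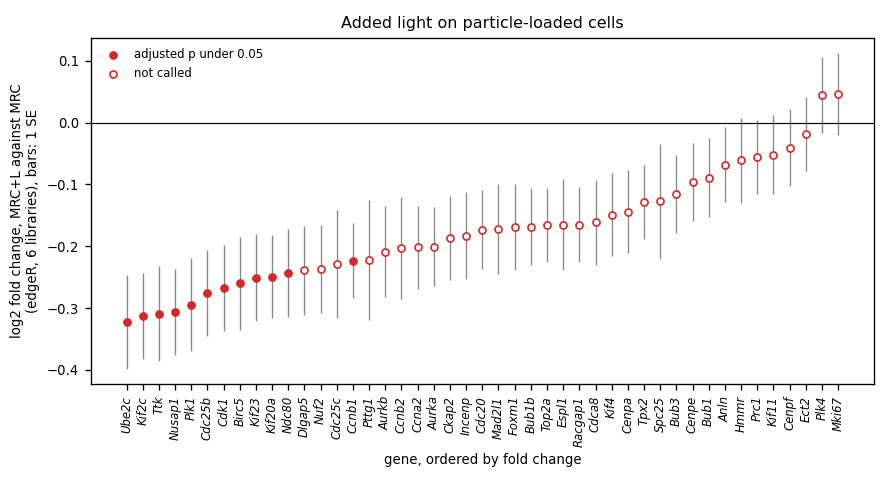
The 45 genes are ordered by their log2 fold change of MRC+L against MRC in the edgeR fit to those 6 libraries, and bars give 1 SE. The 12 filled points passed an adjusted p of 0.05. All but Plk4 and Mki67 lie below 0, and none lies below -0.4.

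Levels between genes were compared per kb of summed exon. That length sums every annotated exon of a gene and can exceed the transcripts the cells made, so the ranks depend on the annotation. In PBS, Top2a (160.3 CPM per kb) and Cdc20 (158) led the 45 genes, followed by Ccnb2 (111), Ube2c (96.4), Plk1 (94.6), Tpx2 (86.5) and Mki67 (85.9). In MRC+L the order at the top was Cdc20 (134), Top2a (85.7), Anln (61.2), Tpx2 (55.1) and Mki67 (52.2), while Ccnb2 stood at 41.7. The PBS order after the first 2 genes turned on PBS replicate 2. In the mean of PBS replicates 1 and 3 alone it ran Top2a (177 CPM per kb), Cdc20 (145), Mki67 (99.7), Anln (96.9), Ccnb2 (95.5), Plk1 (95.3), Tpx2 (85.5), Ccna2 (82.6) and Ube2c (78.2). The neighbours Top2a and Cdc20 in PBS, and Tpx2 and Mki67, were not tested against each other.

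Motif letters were also counted by call. Of the 28 genes with a window that were called lower in MRC+L, 21 (75%) had CCAAT letters and 8 (28.57%) CHR letters. In the 9 not called they occurred in 7 (77.78%) and 5 (55.56%). A gene counted if any of its windows matched. Ect2, Bub3 and Prc1, all not called, had more than 1 window, and Prc1 had CHR letters in only 1 of its windows. These shares are therefore not an even comparison. Cdc20, with both motifs, was not called in the fit to 9 libraries, and Cdk1 and Top2a, with both, were.

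A wider list of 151 further genes of the same pathways was read beside the 45, and 148 of them were tested. The CDK inhibitors Cdkn1c, Cdkn2a and Cdkn2b did not pass the filter, with 0 or 1 counts per library. Of the 148, 61 fell and 6 rose in MRC (median log2 -0.33), and 73 fell and 12 rose in MRC+L (median -0.45). Without PBS replicate 2, 94 fell and 13 rose in MRC, and 92 fell and 16 rose in MRC+L. Of all tested genes 19.8% and 24.5% fell in these comparisons, and 17.8% and 21.8% rose. Without that library 26% and 28.3% fell, and 24.7% and 27.4% rose.

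Regulators of entry into mitosis fell in 6 of 14 cases in MRC and 7 in MRC+L, and in 8 of 14 in each without PBS replicate 2. Over all tested genes 19.8% and 24.5% fell with that library, and 26% and 28.3% without it. Melk, a kinase of G2 and mitosis, had 90.7, 83.2 and 84.2 CPM in PBS, 40.6, 40.6 and 41.9 CPM in MRC and 35.7, 35.1 and 35.1 CPM in MRC+L, and was 2.1-fold lower in MRC (adjusted p = 1.84e-05) and 2.44-fold lower in MRC+L (adjusted p = 4.35e-06). Bora, which lets Aurora A activate PLK1, was 1.52-fold lower in MRC and 1.51-fold lower in MRC+L, and Gtse1, a microtubule-binding protein of G2, 1.48-fold and 1.74-fold lower (all 4 adjusted p at most 0.00074). Cdc25a, the CDC25 phosphatase that acts from G1 onward, moved the other way, with 56.8, 48.2 and 54.6 CPM in PBS, 84.7, 78.0 and 82.8 CPM in MRC and 71.0, 80.8 and 78.4 CPM in MRC+L. It rose 1.54-fold in MRC (adjusted p = 0.00107) and 1.44-fold in MRC+L (adjusted p = 0.00218), unlike Cdc25b and Cdc25c.

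The core and regulators of the APC/C fell in 5 of 17 cases in MRC and 7 in MRC+L, and none rose. Of all tested genes 19.8% and 24.5% fell. Without PBS replicate 2, 7 of the 17 fell and 2 rose in MRC, and 6 fell and 1 rose in MRC+L. The shares of all tested genes that fell were then 26% and 28.3%, so the MRC+L count stood near that of all genes. Without PBS replicate 3, 10 fell in MRC and 11 in MRC+L. Fbxo5, which encodes the APC/C inhibitor EMI1, was 1.6-fold and 1.83-fold lower (adjusted p = 0.00151 and 0.000275). Fzr1, the activator CDH1 that follows CDC20, was 1.51-fold and 1.8-fold lower (adjusted p = 0.00365 and 0.000375), and the subunit Anapc4 1.54-fold and 1.57-fold lower (adjusted p = 0.00117 and 0.00076).

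Among 29 centromere and kinetochore genes of the wider list, 15 fell and 1 rose in MRC, and 17 fell and 2 rose in MRC+L. Without PBS replicate 2, 19 fell in MRC and 20 in MRC+L. Over all tested genes 19.8% and 24.5% fell with that library, and 26% and 28.3% without it. The MRC count was 6 without MRC replicate 1 or MRC replicate 2. Oip5, which helps load CENPA, was 1.84-fold and 1.8-fold lower (adjusted p = 0.000747 and 0.00073). Ska3, of a complex that tracks microtubule ends, was 1.37-fold and 1.5-fold lower (adjusted p = 0.0043 and 0.000785), and Cenpx 2.38-fold and 2.56-fold lower (adjusted p = 0.00296 and 0.00157). Mis12, which anchors the outer kinetochore, was higher in MRC (log2 0.42, adjusted p = 0.0173, up to 0.079 with 1 library left out) and in MRC+L (log2 0.57, adjusted p = 0.00291). Zwint, another outer kinetochore protein, was higher in MRC+L (log2 0.50, adjusted p = 0.0143), a call lost without PBS replicate 1 (0.0613).

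Condensin and cohesin genes fell in 6 of 19 cases in MRC and 8 in MRC+L. These counts turned on PBS replicate 2, without which 17 of 19 fell in MRC and 15 in MRC+L. The shares of all tested genes that fell were 19.8% and 24.5% with that library, and 26% and 28.3% without it. The condensin subunits Ncaph (1.69-fold and 2.02-fold lower, adjusted p = 0.000252 and 3.13e-05) and Ncapd2 (1.69-fold and 1.82-fold lower, adjusted p = 0.000297 and 0.000101), which compact chromosomes, led them. The cohesin gene Stag1 and the cohesin release factor Wapl were higher in MRC+L (log2 0.59 and 0.58, adjusted p = 0.0174 and 0.0261). Both calls were lost without some single libraries, among them MRC+L replicate 2 (0.0533 and 0.065), and PBS replicate 2 had the lowest level of both genes.

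Other spindle genes fell in 10 of 22 cases in MRC and 13 in MRC+L, and in 15 and 18 without PBS replicate 2. The shares of all tested genes that fell were 19.8% and 24.5% with that library, and 26% and 28.3% without it. Psrc1, a spindle protein of low level, had 12.6, 16.4 and 8.71 CPM in PBS, 4.05, 3.32 and 3.62 CPM in MRC and 2.75, 2.54 and 2.78 CPM in MRC+L, and was 3.44-fold and 4.66-fold lower (adjusted p = 0.000262 and 6.15e-05). Kif15, a spindle motor that can share the work of KIF11, was 1.85-fold and 1.81-fold lower (adjusted p = 0.000586 and 0.000564), and Fam83d, which recruits a kinase to the spindle, 1.64-fold and 1.84-fold lower (adjusted p = 0.00105 and 0.000235). Kif2a, a relative of Kif2c with roles outside mitosis, rose 1.5-fold and 1.61-fold (adjusted p = 0.00157 and 0.0005). Of 15 genes listed as cytokinesis partners 11 fell in each comparison, and 13 in each without PBS replicate 2. The name is loose, since the list also holds Cdca2, Cdca3, Aspm, Cntrob, Troap and Pimreg. Its counts are therefore not counts of cytokinesis genes alone. The MRC count was 6 without MRC replicate 1 or PBS replicate 1 and 7 without MRC replicate 3. Among them was Septin9, of the septin ring, 2.19-fold and 2.4-fold lower (adjusted p = 0.000115 and 4.42e-05).

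Of 9 genes listed under centriole duplication, 2 rose in each comparison and none was called lower. That share of rises lay near that of all tested genes (17.8% in MRC and 21.8% in MRC+L). The 2 were the Polo kinases Plk2 and Plk3, and no other gene of the list was called in the fit to 9 libraries. In the fit without PBS replicate 2, 3 rose and 3 fell in MRC, and 3 rose and 0 fell in MRC+L. Plk2, a Polo kinase that responds to stress, had 46.1, 49.8 and 47.7 CPM in PBS, 550.4, 437 and 469 CPM in MRC and 495, 555 and 579 CPM in MRC+L. It rose 10.1-fold in MRC (log2 3.34, SE 0.13, adjusted p = 6.95e-07) and 11.3-fold in MRC+L (log2 3.50, SE 0.13, adjusted p = 5.20e-07), the opposite of Plk1. Plk3, a further stress-responsive Polo kinase, had 51.7, 59.4 and 48.0 CPM in PBS, 98.5, 87.0 and 78.6 CPM in MRC and 107, 108 and 112 CPM in MRC+L, and rose 1.66-fold and 2.05-fold (adjusted p = 0.00094 and 8.68e-05). So of the 4 Polo kinases measured, Plk1 fell, Plk2 and Plk3 rose, and Plk4 passed no test.

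Of 10 MuvB, MYB and DREAM genes 3 fell in each comparison, while 1 rose in MRC and 2 in MRC+L. Of all tested genes 19.8% fell and 17.8% rose in MRC, and 24.5% and 21.8% in MRC+L. With PBS replicate 2 left out, 4 of the 10 fell in each, and 2 rose in MRC and 3 in MRC+L. Of all tested genes 26% and 28.3% then fell, and 24.7% and 27.4% rose. For so few genes these counts stand near the shares of all genes. The MRC count of genes that fell was 1 without MRC replicate 2. Rbl2, which encodes the DREAM pocket protein p130, was 1.98-fold and 2-fold lower (adjusted p = 0.00235 and 0.00179). Mybl2, which encodes B-MYB, was lower in MRC (log2 -0.29, adjusted p = 0.0305, up to 0.113 with 1 library left out) and in MRC+L (log2 -0.49, adjusted p = 0.00179). The MuvB subunit Lin52 was higher in MRC (log2 0.38, adjusted p = 0.0283, up to 0.0943) and in MRC+L (log2 0.51, adjusted p = 0.00557). Of the 13 tested G1 genes 5 fell and 0 rose in MRC, and 7 fell and 2 rose in MRC+L. When PBS replicate 2 was left out, 8 fell and 1 rose in MRC, and 8 fell and 3 rose in MRC+L. Ccnd1, the cyclin of G1 entry, had 1138, 657 and 1185 CPM in PBS, 239, 279 and 297 CPM in MRC and 215, 191 and 190.2 CPM in MRC+L, and was 3.65-fold and 5-fold lower (adjusted p = 0.000106 and 2.30e-05). Ccnd3 was 2.55-fold and 3.14-fold lower (adjusted p = 2.65e-05 and 5.75e-06). Ccne2, an E-type cyclin that acts at the start of S phase, had 29.1, 26.6 and 29.4 CPM in PBS, 40.3, 31.3 and 36.5 CPM in MRC and 32.9, 41.3 and 35.6 CPM in MRC+L, and was higher in MRC+L (log2 0.37, adjusted p = 0.0421, up to 0.165 with 1 library left out) but did not pass in MRC (log2 0.34, adjusted p = 0.0617). Cdkn1a, which encodes the CDK inhibitor p21, had 50.9, 50.9 and 44.5 CPM in PBS, 56.7, 49.8 and 51.2 CPM in MRC and 66.5, 63.5 and 54.8 CPM in MRC+L. It passed the test in MRC+L (log2 0.34, adjusted p = 0.0326), a call lost with several single libraries left out (up to 0.121), and not in MRC (log2 0.11, adjusted p = 0.483).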

How the data were processed

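The authors deposited 1 table per library with raw counts of read pairs per gene. Per the file headers, featureCounts 2.0.1 produced these deposited counts in paired-end mode, summing exons within each gene of Ensembl release 104 (GRCm39). Its strand setting was left at the default, so overlapping and antisense genes are uncertain. Multi-mapping reads were not counted, so near-identical copies are uncertain, and the name table lists pseudogenes of Ccnb1 and Ccnb2. The aligner is not given in the sources used here.

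Symbols came from GENCODE M21 by gene ID for 52083 IDs (94.0%). All 45 symbols matched, 151 of 152 on the wider list and 30 of 30 markers. The 45 genes and the lists were chosen with earlier results of these data known, so their counts are descriptions.

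Genes were kept by edgeR 4.0.16 (R 4.3.3) with a minimum count of 10 and minimum total of 15. The quasi-likelihood test used TMM factors, 1 mean per group, all 9 libraries, a prior count of 0.125 and Benjamini-Hochberg adjusted p under 0.05. The code was tested on simulated data with the same spread in every library and no length trend. That test therefore does not cover the wider spread of PBS or the length trend of PBS replicate 2. All 45 genes were named, with library values for the 2 smallest adjusted p and the highest mean CPM in each role, and for the genes not called. Of the wider list, the 2 smallest adjusted p in each sublist and genes called against most of it were eligible. Alternatives were RLE factors, DESeq2 1.42.0, no filter, a replicate block, a length offset, only the groups compared, and each library left out. A fit without PBS replicate 2 to 5 libraries, PBS levels per kb without it, and single omissions in the 6 libraries of MRC and MRC+L, were added after seeing the data. Same-numbered libraries did not deviate together.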

Additional observations from a re-analysis of the deposited data

How the results depend on the processing

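The counts of the 45 genes called lower against PBS stayed within 1.5 times under every alternative run (27 to 41 in MRC, 35 to 42 in MRC+L), and none was called higher. The replicate number gave no sign of pairing, with correlations of -0.185 to 0.0385 between same-numbered libraries, and not every library correlated best with its own number. With the number as a block 31, 36 and 0 of the 45 were called lower in MRC against PBS, MRC+L against PBS and MRC+L against MRC. The median of the 45 ran from -0.60 to -0.51 in MRC with 1 library left out, and from -0.80 to -0.69 in MRC+L, where it was -0.83 with the length trend removed, -0.82 with that and the replicate block, and -0.80 in 5 libraries. In the wider list 11 genes were called higher in MRC with DESeq2, with the length trend removed and in 5 libraries, and 4 to 13 higher and 42 to 94 lower with 1 library left out, against 7 to 16 higher in MRC+L. Between MRC+L and MRC, the genes called over the whole table numbered 22 with DESeq2, 15 with no filter, 3 with the length trend removed, 654 in 6 libraries and 0 to 89 with 1 library left out. In 6 libraries 12 of the 45 were lower, 0 to 15 with 1 library left out, and 2 of the wider list were higher and 4 lower; with 1 of 9 libraries left out 0 to 1 of the wider list were lower.

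Some differences near 0 changed sign. In MRC against PBS, Plk4 was 0.0047 with no filter and ran from -0.14 to 0.061 with 1 library left out. Prc1 was -0.027 with the length trend removed, -0.023 with that and the block, -0.12 in 5 libraries, and -0.14 (without PBS replicate 2) to 0.20 (without PBS replicate 3) with 1 library left out. Cdc20 was 0.075 with the length trend removed, with or without the block, 0.065 in 5 libraries, and -0.18 to 0.048 with 1 library left out. Bub3 was 0.012 in 5 libraries. In MRC+L against PBS, Plk4 was -0.078 with the length trend removed, with or without the block, -0.090 in 5 libraries, and -0.093 to 0.10 with 1 library left out. Prc1 was -0.14 with the length trend removed, -0.13 with that and the block, -0.19 in 5 libraries (adjusted p = 0.0433), and -0.20 to 0.14 with 1 library left out. In MRC+L against MRC, Mki67 was -0.038 with the length trend removed, with or without the block, and -0.016 to 0.090 with 1 library left out. The cause was not tested. The 45 genes had at least 381 counts in each library.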
